A study of Ranunculus trichophyllus with 6 samples.

Results

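The genes described here are homologs of Arabidopsis genes annotated under response to ethylene or under ethylene biosynthetic process, as measured in the amphibious plant *Ranunculus trichophyllus*. They were taken from the deposited annotation of the assembled transcripts by those 2 gene ontology terms, leaving out homologs that also carry a term for chitin, wounding or jasmonic acid and 6 core ethylene genes (EIN3, CTR1, EBF1, ERF1, ACO1 and ACS6). This gave 72 of the 8613 Arabidopsis homologs in the table, assembled as 146 transcripts. Of the 72, 51 fall under the response term, 23 under the synthesis term and 2 under both. A homolog is named by its best Arabidopsis match, and the matched transcripts had a median identity of 60% (range 28 to 97%), so a shared name is not proof of a shared role. For 39 of the 72, the only evidence behind the annotation was RCA (inferred from reviewed computational analysis), whereas 33 had other evidence. The label therefore covers the ethylene synthesis enzymes and their regulators, but also many genes tied to ethylene by computation alone.

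Ethylene is a gaseous hormone that plants make from S-adenosylmethionine through ACC, by ACC synthases (ACS) and ACC oxidases (ACO). In Arabidopsis its receptors hold the pathway off through the kinase CTR1, and when ethylene binds, EIN2 and the transcription factors EIN3 and EIL turn on target genes such as the ERF factors. Because gases leave a submerged shoot slowly, ethylene is well known as a signal of submergence, and it often acts together with gibberellin and auxin on shoot growth.

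RNA of aquatic plants, seedlings soaked in water from an age of 1 week, was sequenced in 3 libraries, and RNA of terrestrial plants, grown in air, in 3 more. All plants were kept at 22 °C with 16 h light and 8 h dark, and cotyledon and hypocotyl were removed before extraction. The first replicate of each condition was labelled as leaf taken at 14 days. Replicates 2 and 3 were labelled as also holding the shoot apical meristem and taken at 11 days. Tissue, age and, in aquatic plants, any difference in time under water cannot be told apart, and together they are called the harvest here. The paper instead describes a single sampling time for sequencing, with leaves and shoot apexes, and the labels were followed here. The comparison asks how growth in water bears on the genes of this hormone. The labels do not say whether replicates came from separate cultures, and p-values measure only the spread between these libraries.

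Total counts were 26864711 to 33978729 in aquatic and 25345718 to 30113443 in terrestrial libraries, and the 72 homologs held 75130 to 79927 of them in aquatic and 59797 to 94235 in terrestrial libraries. Aquatic replicate 1 stood apart because 3 transcripts held 36.2% of its counts, against 0.287 to 0.987% in the other 5 libraries, and its share of counts on Arabidopsis homologs was 33.4%, against 54.2 to 56.3%. Aquatic replicate 2 also stood apart, since 1530 of 1617 transcripts whose best match is a fungus had counts in it, against 36 to 139 in the other 5. Levels are in CPM, the counts of a gene per 1000000 counts on homologs after TMM scaling, and they compare a gene between libraries, not genes with each other. The summed level of 4 annotated stomatal markers was 3.15 to 8.19 in aquatic and 33.1 to 45.6 CPM in terrestrial libraries, and that of 4 leaf photosynthetic markers was 20501 to 22684 CPM in aquatic and 21790 to 44365 CPM in terrestrial libraries. Single genes can dominate these sums. The stomatal marker MYB60 held 41.0 of 42.6 CPM in terrestrial replicate 1. MUTE, another, had 2.61 CPM in aquatic and 0.867 CPM in terrestrial replicate 1. As whole tissue was sequenced, fewer cells of a type and less RNA per cell cannot be told apart. Log2 fold changes are aquatic over terrestrial, with standard error, from edgeR's quasi-likelihood test with a term for the harvest, and p-values were adjusted by Benjamini-Hochberg over 8154 homologs. A gene is said to be higher or lower only where this adjusted p was under 0.05.

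More of the ethylene homologs were higher than lower in aquatic plants. Of 65 tested, 20 (30.8%) were higher, beside 9.6% of all tested homologs, and 5 (7.69%) were lower, beside 6.78%. The median log2 fold change was 0.41 over the 65 and -0.02 over all tested homologs, and 73.8% of the 65 had a positive value, beside 48.8% of all. Among the 40 that did not pass, 28 had a positive and 12 a negative value. All 3 aquatic libraries lay above all 3 terrestrial libraries in 25 of the 65, beside 13.7% of all homologs, and below them in 8, beside 11.8%. In the plot of fold changes, the called genes span a log2 fold change of -4.82 for MYB12 to 5.57 for WAKL10. With the replicate number as a block in place of the harvest, 11 were higher and 0 lower, beside 4.01% and 1.45% of all homologs (5.46% either way). When libraries were scaled by their totals over all transcripts, which moved the median of all homologs to -0.35, 5 were higher and 6 lower, beside 3.59% and 5.53%. DESeq2 called 31 higher and 8 lower, beside 16.8% and 16.1%. The number of calls changed with the library left out. Without aquatic replicate 2 edgeR called 0 members and also 0 of all 8219 homologs tested. At an unadjusted p under 0.05 there were 35 of 66 members, beside 2478 of all 8219 homologs. DESeq2 without this library called 22 higher and 7 lower, beside 10.7% and 9.86% of all homologs. There were 14 higher and 2 lower without aquatic replicate 3, beside 5.41% and 1.88% of all homologs. Leaving out terrestrial replicate 2 gave 1 and 0 (1.45% and 0.474% of all homologs), and leaving out terrestrial replicate 3 gave 2 and 0 (0.657% and 0.195%). By contrast, 21 and 4 were called when aquatic replicate 1 was left out, beside 10.6% and 9.2% of all homologs.

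**Figure D1:**
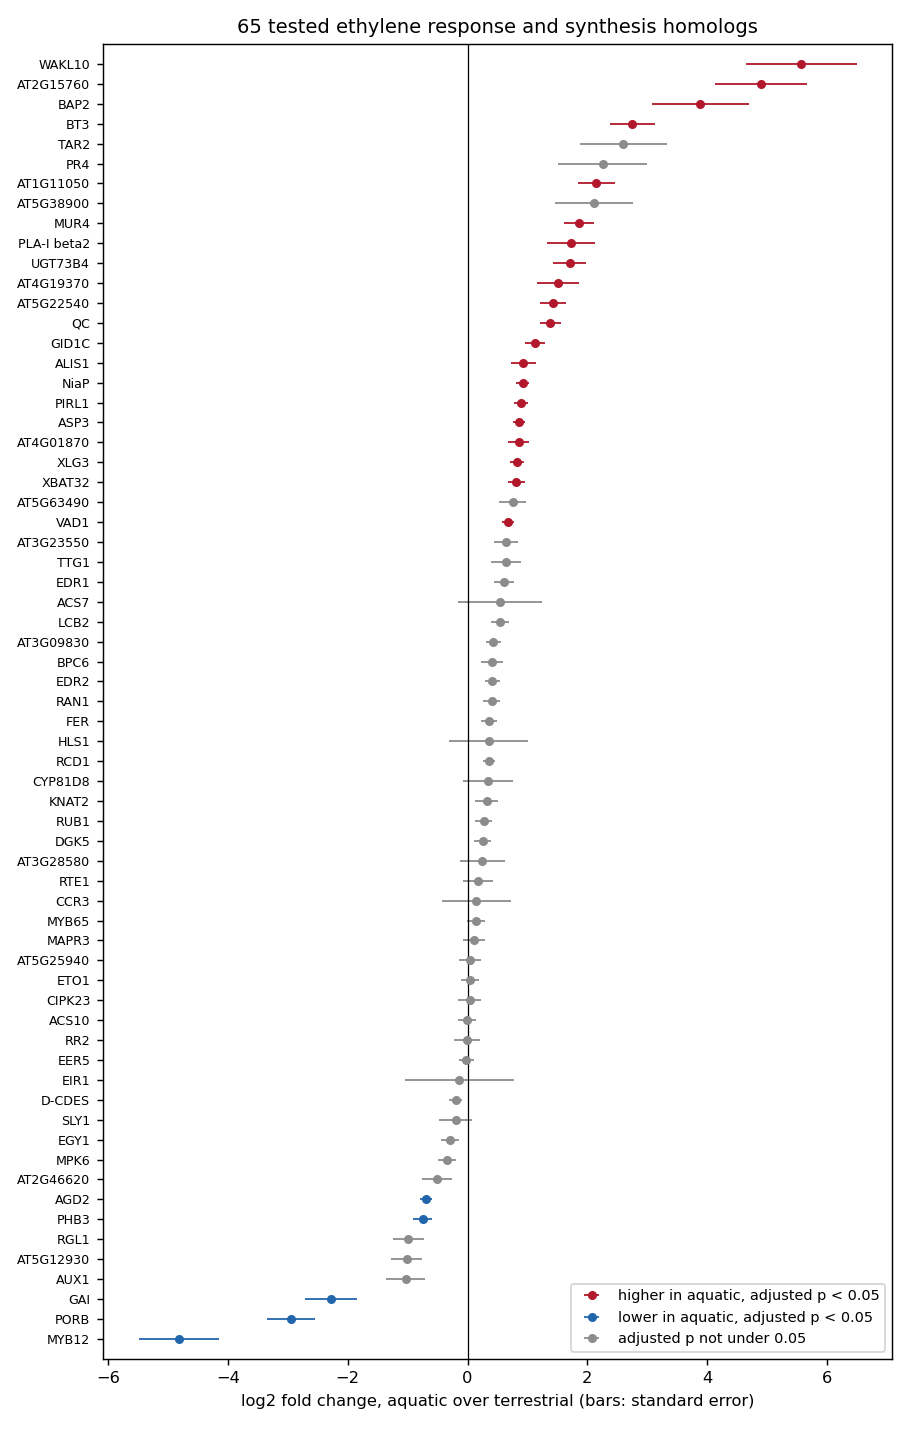
Log2 fold change (aquatic over terrestrial, x axis) of each of the 65 tested ethylene response and synthesis homologs, with bars for the standard error. The 20 called higher are red, the 5 called lower are blue, and the 40 not called are grey and mostly lie near 0.

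Most of the higher genes had RCA evidence alone. Of 33 tested homologs with RCA evidence alone, 17 (51.5%) were higher and 1 was lower, with a median log2 fold change of 0.85. Of 32 with other evidence, 3 (9.38%) were higher and 4 (12.5%) lower, with a median of 0.22, and the share of higher calls there was near that of all homologs. By ontology term, 10 of 19 tested synthesis homologs (52.6%) were higher and 1 was lower, beside 9.6% and 6.78% of all homologs. Of 48 response homologs, 12 (25%) were higher and 4 (8.33%) lower. With the replicate block these counts were 6 higher and 0 lower under each term, beside 4.01% and 1.45% of all homologs. All 10 higher synthesis homologs, and the 1 lower, had RCA evidence alone. Those tested with other evidence, ACS7, ACS10, ETO1, RUB1 and D-CDES, were not called. No test of a difference between these classes was run.

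**Figure D2:**
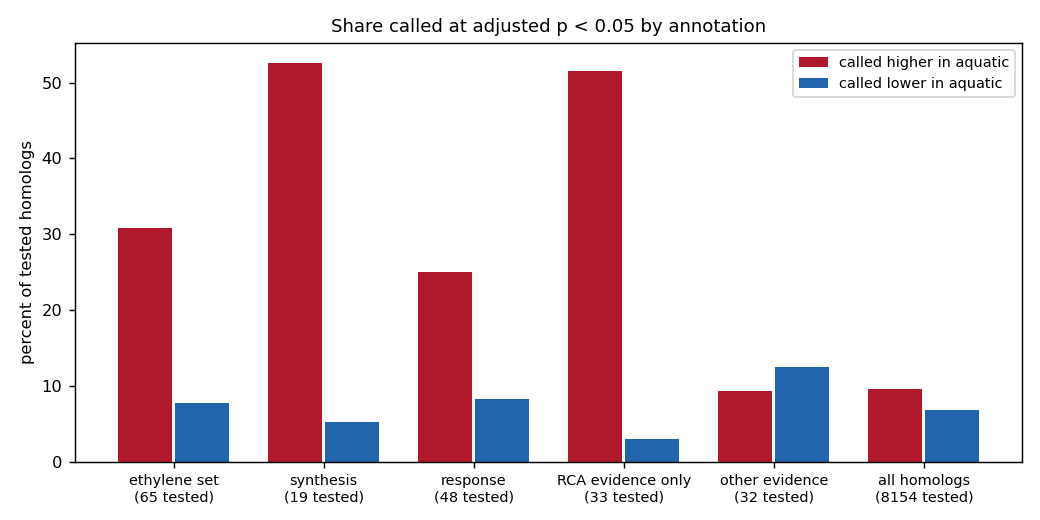
Percent of tested homologs called higher (red) or lower (blue) in aquatic plants at adjusted p under 0.05, for the ethylene set, its 2 ontology terms and its 2 evidence classes, beside all 8154 tested homologs. The higher bar is 51.5% for RCA evidence alone, 9.38% for other evidence and 9.6% for all homologs.

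Among the 7 tested members that make ethylene or set how much is made, 0 were lower and 1 (14.3%) was higher. Of all homologs, 6.78% were lower and 9.6% higher. The higher member was XBAT32, a ubiquitin ligase that in Arabidopsis targets ACC synthases for degradation. It had 62.5, 57.0 and 54.4 CPM in aquatic replicates 1 to 3, against 44.7, 28.8 and 27.6 CPM in terrestrial replicates 1 to 3. All aquatic libraries lay above all terrestrial ones, and its log2 fold change was 0.81 ± 0.14 (edgeR adjusted p = 0.024). The call was lost with the replicate block (adjusted p = 0.068, range over the 21 alternatives 7.3e-05 to 0.324). ACS7, an ACC synthase that XBAT32 targets in Arabidopsis, had 16.2, 13.4 and 9.12 CPM in aquatic and 18.9, 10.1 and 1.61 CPM in terrestrial libraries. The groups overlapped, and the log2 fold change of 0.55 ± 0.70 (edgeR adjusted p = 0.598) became -0.04 without terrestrial replicate 3, its lowest library. ACS10, which is grouped with the ACC synthases but works as an aminotransferase in Arabidopsis, had 87.2, 61.4 and 46.8 CPM in aquatic and 93.7, 49.2 and 56.2 CPM in terrestrial libraries. In both conditions its highest library was the 14-day one, and the log2 fold change was -0.01 ± 0.14. The ACC oxidase homolog ACO5 was nearly absent, with at most 0.123 CPM in any aquatic and 0.204 CPM in any terrestrial library, and was not tested. ACO3 and ACO4, other ACC oxidases, had no homolog in the annotation, so their RNA could not be followed here. The paper separately reports higher RNA of RtACO4B and RtACO4C in aquatic than in terrestrial plants.

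ETO1, an adaptor that marks other ACC synthases for degradation in Arabidopsis, had 15.8, 18.2 and 19.5 CPM in aquatic and 18.2, 17.6 and 16.1 CPM in terrestrial libraries. The groups overlapped, and its log2 fold change of 0.04 ± 0.15 was -0.29 with library totals. D-CDES, a cysteine desulfhydrase related to the bacterial ACC deaminases, had 55.4, 49.8 and 56.2 CPM in aquatic, all below 57.4, 66.2 and 61.5 CPM in terrestrial libraries, but its log2 fold change of -0.20 ± 0.11 did not pass the test (edgeR adjusted p = 0.253). MPK6, a kinase that stabilises ACC synthases by phosphorylation, likewise had 33.2, 32.1 and 43.4 CPM in aquatic, all below 45.2, 44.2 and 48.4 CPM in terrestrial libraries, with a log2 fold change of -0.34 ± 0.15 (edgeR adjusted p = 0.166). RUB1, a ubiquitin-like modifier, had 92.9, 78.0 and 86.4 CPM in aquatic and 61.8, 74.5 and 78.0 CPM in terrestrial libraries and was not called (log2 fold change 0.27 ± 0.14, -0.07 with library totals). Ubiquitin genes are near-identical copies of each other, so the counts of RUB1 are uncertain.

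None of the 5 homologs that act in ethylene perception and signalling passed edgeR's test, beside 16.4% of all homologs. With the replicate block 0 of them passed, beside 5.46% of all homologs. The log2 fold changes of the 5 lay between -0.02 and 0.61. RAN1, the copper transporter that loads the ethylene receptors, had 30.5, 20.8 and 19.5 CPM in aquatic, all above 19.3, 16.1 and 17.2 CPM in terrestrial libraries (log2 fold change 0.41 ± 0.14, edgeR adjusted p = 0.109). RTE1, which promotes signalling by the receptor ETR1, had 18.4, 13.7 and 18.9 CPM in aquatic and 19.6, 16.2 and 10.3 CPM in terrestrial libraries, and the groups overlapped. EER5, a negative regulator of ethylene responses in Arabidopsis seedlings, was at similar levels in all libraries, with 18.3 to 21.0 CPM in aquatic and at most 20.1 CPM in terrestrial libraries. RR2, a response regulator of cytokinin signalling, had log2 fold change -0.01 ± 0.22, and EDR1, a CTR1-related kinase, 0.61 ± 0.16 (edgeR adjusted p = 0.062).

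Of 8 tested gibberellin and auxin genes, 1 (12.5%) was higher and 1 (12.5%) lower, beside 9.6% and 6.78% of all homologs. Both called genes belong to gibberellin signalling. GID1C, a gibberellin receptor, had 199, 127 and 182 CPM in aquatic, against 90.03, 67.4 and 75.3 CPM in terrestrial libraries. The groups did not overlap, and the gene was higher in aquatic plants by a log2 fold change of 1.12 ± 0.17 (edgeR adjusted p = 0.019, 0.041 with the replicate block, range over alternatives 2.6e-09 to 0.266). GAI, a DELLA repressor of gibberellin responses that the receptor targets for degradation, had 8.73, 27.2 and 29.1 CPM in aquatic, against 106, 88.3 and 92.4 CPM in terrestrial libraries. Every aquatic library was below every terrestrial one, the lowest being the 14-day aquatic library, and the log2 fold change was -2.28 ± 0.43 (edgeR adjusted p = 0.030). With the replicate block the call was lost (adjusted p = 0.082, range over alternatives 2.0e-06 to 0.288), and the log2 fold change was -1.69 without aquatic replicate 1 and -1.68 without terrestrial replicate 1. RGL1, another DELLA protein, was at 1.24 to 4.50 CPM in aquatic and 3.47 to 6.94 CPM in terrestrial libraries and did not pass (log2 fold change -0.99 ± 0.26, edgeR adjusted p = 0.062). SLY1, the F-box protein that removes DELLA proteins, had a log2 fold change of -0.20 ± 0.28.

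TAR2, a tryptophan aminotransferase of auxin synthesis, had 207, 71.9 and 55.2 CPM in aquatic, against 7.93, 23.8 and 15.8 CPM in terrestrial libraries. The groups did not overlap, but the aquatic libraries spread widely, and a log2 fold change of 2.60 ± 0.72 did not pass (edgeR adjusted p = 0.067). AUX1, an auxin influx carrier, had 72.3, 88.4 and 125 CPM in aquatic, all below 268, 146 and 179 CPM in terrestrial libraries (log2 fold change -1.03 ± 0.33, edgeR adjusted p = 0.088). HLS1, an acetyltransferase homolog needed for the apical hook, had 0.720, 13.0 and 30.8 CPM in aquatic and 2.48, 11.4 and 10.3 CPM in terrestrial libraries. Both 14-day libraries were below every 11-day one, and the log2 fold change between conditions was 0.35 ± 0.66 (edgeR adjusted p = 0.722). EIR1, an auxin efflux carrier of the root, was at no more than 1.602 CPM in any library.

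**Figure D3:**
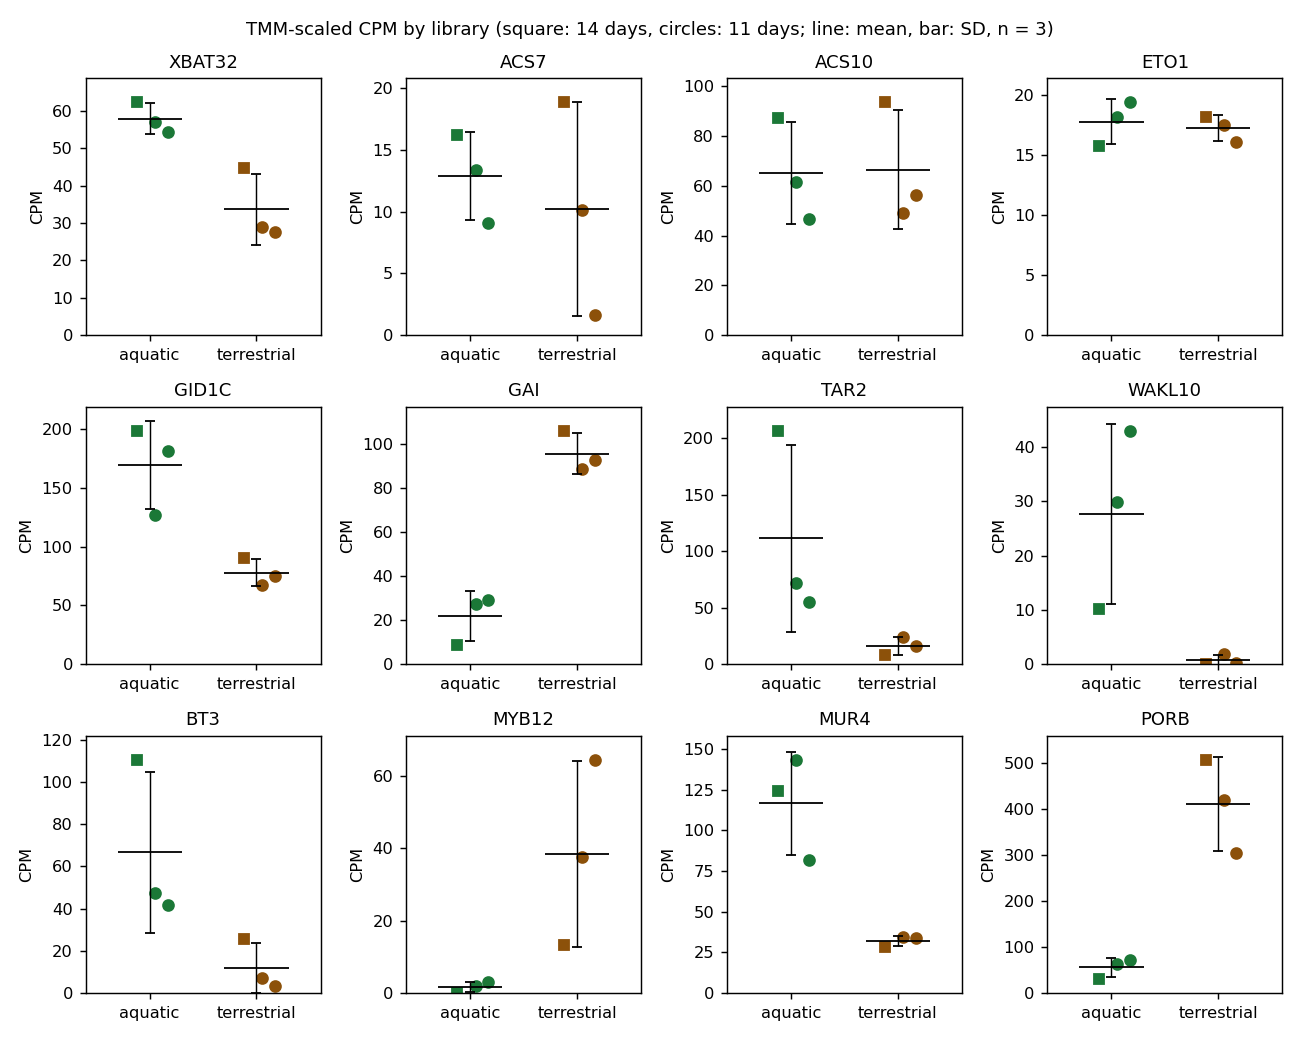
CPM (y axis, from 0) of 12 members in each library, aquatic (green) left of terrestrial (brown), with squares for the 14-day and circles for the 11-day harvest, a line for the mean and a bar for the SD (n = 3). XBAT32, GID1C, WAKL10, BT3 and MUR4 were higher and GAI, MYB12 and PORB lower in aquatic plants, whereas ACS7, ACS10, ETO1 and TAR2 were not called.

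In the group of receptors, kinases and defence proteins, 6 of 13 tested homologs were higher and 0 lower, beside 9.6% and 6.78% of all homologs. With the replicate block 3 were higher, beside 4.01% of all homologs. All 13 had a positive log2 fold change, beside 48.8% of all homologs. The groups were assigned with earlier results known, and the kinases MPK6 and EDR1 were placed in other groups. CIPK23 and CCR3, neither of them called, turned negative with library totals and without aquatic replicate 2, CCR3 also with the replicate block (-0.08), and both under further alternatives. WAKL10, a wall-associated receptor-like kinase, had 10.1, 30.0 and 43.1 CPM in aquatic, against 0, 1.84 and 0.193 CPM in terrestrial libraries. It was nearly absent on land, and its log2 fold change of 5.57 ± 0.92 was the highest of all members (edgeR adjusted p = 0.022, and 7.87 as log2 fold change without terrestrial replicate 2). BAP2, a suppressor of programmed cell death in Arabidopsis, had 22.4, 41.4 and 6.16 CPM in aquatic and 1.61, 1.02 and 2.06 CPM in terrestrial libraries. The aquatic levels spanned a wide range yet stayed above every terrestrial one (log2 fold change 3.89 ± 0.82, edgeR adjusted p = 0.039, and 2.79 without aquatic replicate 2). AT1G11050, a protein kinase homolog under both terms, had 18.6, 23.3 and 13.2 CPM in aquatic, against 5.76, 3.88 and 3.15 CPM in terrestrial libraries (log2 fold change 2.14 ± 0.31, edgeR adjusted p = 0.018). In all 3 genes the groups did not overlap.

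QC, a glutaminyl cyclase that modifies the first residue of proteins, had 20.3, 17.5 and 13.2 CPM in aquatic and 7.19, 5.85 and 6.43 CPM in terrestrial libraries (log2 fold change 1.38 ± 0.18, edgeR adjusted p = 0.016). XLG3, an extra-large G protein alpha subunit, had 518, 303 and 296 CPM in aquatic and 277, 182 and 165 CPM in terrestrial libraries (log2 fold change 0.83 ± 0.11, edgeR adjusted p = 0.016). VAD1, a membrane protein that limits cell death along the veins in Arabidopsis, had 57.8, 42.5 and 41.8 CPM in aquatic and 34.4, 27.9 and 26.5 CPM in terrestrial libraries (log2 fold change 0.67 ± 0.10, edgeR adjusted p = 0.019). In these 3 genes the 14-day library was the highest of its condition, and the groups did not overlap. The calls of WAKL10 (adjusted p = 0.063, range over alternatives 1.6e-08 to 0.260), BAP2 (0.098, range 2.9e-06 to 0.315) and VAD1 (0.056, range 9.3e-07 to 0.295) were lost with the replicate block.

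PR4, a chitin-binding defence protein and a common ethylene marker, had 47.5, 169 and 99.6 CPM in aquatic and 4.34, 13.6 and 67.1 CPM in terrestrial libraries. Terrestrial replicate 3 was above aquatic replicate 1, and the log2 fold change of 2.26 ± 0.74 did not pass (edgeR adjusted p = 0.094). AT5G38900, a thioredoxin-fold protein homolog, had 103, 13.8 and 11.5 CPM in aquatic and 6.57, 6.19 and 4.63 CPM in terrestrial libraries, with 1 aquatic library far above the rest (log2 fold change 2.11 ± 0.65, edgeR adjusted p = 0.082). FER, the receptor kinase FERONIA, had 776, 379 and 384 CPM in aquatic and 716, 271 and 276 CPM in terrestrial libraries, so that the harvests stood further apart than the conditions (log2 fold change 0.36 ± 0.13). CIPK23, a kinase of potassium and nitrate uptake, overlapped between conditions (209 to 487 CPM in aquatic, 236 to 531 CPM in terrestrial), and its log2 fold change of 0.03 ± 0.19 was -0.30 with library totals.

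Of 7 tested transcription homologs, 1 (14.3%) was higher and 1 (14.3%) lower, beside 9.6% and 6.78% of all homologs. BT3, a scaffold protein with BTB and TAZ domains, had 111, 47.2 and 41.9 CPM in aquatic, against 25.5, 7.14 and 3.34 CPM in terrestrial libraries. It was higher in aquatic plants within each harvest, by a log2 fold change of 2.75 ± 0.37 (edgeR adjusted p = 0.017, 0.043 with the replicate block, range over alternatives 1.1e-10 to 0.279). MYB12, an activator of flavonol synthesis, had 0, 1.99 and 2.90 CPM in aquatic, against 13.3, 37.6 and 64.5 CPM in terrestrial libraries. It was the member with the lowest log2 fold change, -4.82 ± 0.67 (edgeR adjusted p = 0.017), and every aquatic library was below every terrestrial one, although the call was lost with the replicate block (adjusted p = 0.051, range over alternatives 4.8e-13 to 0.279). RCD1, a stress regulator, had 214, 175 and 174 CPM in aquatic, all above 160, 144 and 136 CPM in terrestrial libraries, but did not pass (log2 fold change 0.35 ± 0.10, edgeR adjusted p = 0.069). TTG1, BPC6, MYB65 and KNAT2 had log2 fold changes of 0.14 to 0.64 and overlapping groups.

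Metabolic, transport and organelle genes held 6 higher (40%) and 3 lower (20%) of 15 tested, beside 9.6% and 6.78% of all homologs. PORB, the light-dependent protochlorophyllide reductase of chlorophyll synthesis, had 31.3, 63.2 and 72.0 CPM in aquatic, against 508, 420 and 306 CPM in terrestrial libraries. It was lower in every aquatic library, by a log2 fold change of -2.94 ± 0.40 (edgeR adjusted p = 0.017). AGD2, an aminotransferase of lysine synthesis, had 169, 207 and 206 CPM in aquatic, all below 257, 347 and 342 CPM in terrestrial libraries (log2 fold change -0.69 ± 0.10, edgeR adjusted p = 0.019). It was the only synthesis-term homolog that was lower. PHB3, a mitochondrial prohibitin, had 6.84, 14.0 and 18.5 CPM in aquatic and 11.2, 26.3 and 29.2 CPM in terrestrial libraries, lower within each harvest although the groups overlapped across harvests (log2 fold change -0.75 ± 0.16, edgeR adjusted p = 0.041). With the replicate block these became 0.053 for PORB (range over alternatives 4.2e-12 to 0.279), 0.057 for AGD2 (2.9e-13 to 0.329) and 0.066 for PHB3 (0.0015 to 0.508) as adjusted p.

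MUR4, the epimerase that makes UDP-arabinose for cell walls, had 124, 143 and 81.6 CPM in aquatic, against 28.3, 34.2 and 33.6 CPM in terrestrial libraries. The terrestrial levels were close together, every aquatic one was above them, and the log2 fold change was 1.87 ± 0.25 (edgeR adjusted p = 0.016, 0.042 with the replicate block, range over alternatives 3.3e-09 to 0.279). UGT73B4, a glycosyltransferase, had 140, 130 and 149 CPM in aquatic and 65.1, 27.6 and 41.9 CPM in terrestrial libraries (log2 fold change 1.70 ± 0.27, edgeR adjusted p = 0.021). ASP3, a peroxisomal aspartate aminotransferase, had 258, 230 and 238 CPM in aquatic and 133, 132 and 136 CPM in terrestrial libraries (log2 fold change 0.85 ± 0.10, edgeR adjusted p = 0.014). Neither of its groups varied much across libraries. NiaP, a nicotinate transporter, had 96.5, 51.4 and 49.6 CPM in aquatic and 49.9, 24.9 and 29.2 CPM in terrestrial libraries, higher within each harvest (log2 fold change 0.92 ± 0.11, edgeR adjusted p = 0.014).

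ALIS1, a subunit of a lipid flippase, was also higher (log2 fold change 0.93 ± 0.21, edgeR adjusted p = 0.044), as was PLA-I beta2, a lipase homolog at no more than 2.13 CPM in any library (1.73 ± 0.40, edgeR adjusted p = 0.046). LCB2, a subunit of the first enzyme of sphingolipid synthesis, had 383, 314 and 391 CPM in aquatic, all above 303, 226 and 225 CPM in terrestrial libraries, without passing (log2 fold change 0.54 ± 0.14, edgeR adjusted p = 0.062). With the replicate block the calls of UGT73B4 (adjusted p = 0.053, range over alternatives 6.3e-07 to 0.279), ALIS1 (0.088, 0.171 with library totals) and PLA-I beta2 (0.091, range 0.019 to 0.377) were lost.

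The remaining 10 homologs have little-known functions, and 5 of them (50%) were higher and 0 lower, beside 9.6% and 6.78% of all homologs. AT2G15760, a protein of unknown function, had 29.5, 28.1 and 5.67 CPM in aquatic, against 0.867, 0.816 and 0.386 CPM in terrestrial libraries. It had the second highest log2 fold change of the members, 4.90 ± 0.77, and passed with the replicate block too (edgeR adjusted p = 0.020, 0.025 with the block, range over alternatives 2.7e-10 to 0.260). Without aquatic replicate 2, which held 47.5% of its counts, the log2 fold change was 4.07. PIRL1, a leucine-rich repeat protein that acts in pollen of Arabidopsis, had 334, 220 and 197 CPM in aquatic and 163, 119 and 116 CPM in terrestrial libraries (log2 fold change 0.90 ± 0.11, edgeR adjusted p = 0.016). AT5G22540, another protein of unknown function, had 91.4, 49.0 and 31.3 CPM in aquatic and 31.2, 17.3 and 13.8 CPM in terrestrial libraries (log2 fold change 1.43 ± 0.22, edgeR adjusted p = 0.019). All 3 had their highest aquatic level at 14 days. AT4G01870 (log2 fold change 0.85 ± 0.17, edgeR adjusted p = 0.035) and AT4G19370 (1.51 ± 0.36, edgeR adjusted p = 0.049, at no more than 3.76 CPM) were higher as well, and both calls were lost with the replicate block (adjusted p = 0.066, range over alternatives 0.00081 to 0.312, and 0.090, range 0.023 to 0.400).

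Of the other synthesis-term homologs with little known of their part in ethylene, AT3G09830, a kinase homolog, had 63.8, 31.8 and 26.4 CPM in aquatic and 46.7, 21.1 and 22.4 CPM in terrestrial libraries (log2 fold change 0.43 ± 0.12, edgeR adjusted p = 0.069). AT2G46620 had 45.6, 37.2 and 23.7 CPM in aquatic and 89.9, 35.2 and 38.2 CPM in terrestrial libraries (log2 fold change -0.51 ± 0.24, edgeR adjusted p = 0.195). Neither passed, and the groups overlapped in both.

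In 7 of the 72, too few libraries reached the minimum count for a test. In YLS5, a senescence-associated gene, nearly all counts came from aquatic replicate 2, with 0.450, 42.5 and 0 CPM in aquatic and 0.434, 0.272 and 0.450 CPM in terrestrial libraries. This is the library in which most fungus-matching transcripts had counts, at 0.547% of its counts against 0.0478 to 0.130% in the other libraries. Their part in the YLS5 value was not tested. CML37, a calmodulin-like protein, had 3.42, 6.19 and 0.185 CPM in aquatic and 0.0620, 0 and 0.193 CPM in terrestrial libraries. CML37 and, among others, the tested members BAP2, PR4, AT1G11050 and MUR4 were also highest in aquatic replicate 2. The part of fungus-matching transcripts in their values was not tested either. The kinase homologs AT5G46080 and MAPKKK19, the transcription factor NAC042 and AT1G73740 were at no more than 3.06 CPM in any library.

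TPM, transcripts per 1000000 transcripts, takes transcript length into account and allows levels of different genes to be set side by side. The mean over the 6 libraries had a median of 13.3 TPM over the 72, close to 13.0 TPM over all homologs. It was at least 10 TPM in 41 of them and under 1 TPM in 7. The highest were RUB1 at 147 TPM, AGD2 at 125 TPM, CIPK23 at 102 TPM, PORB at 97.3 TPM and MAPR3, a membrane steroid-binding protein homolog, at 93.4 TPM. Of these 5 abundant genes, AGD2 and PORB were lower in aquatic plants, and the other 3 were not called (MAPR3 log2 fold change 0.11 ± 0.18, -0.22 with library totals).

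In the same fit, 18 of the 65 (27.7%) were higher and 6 (9.23%) lower at 14 days than at 11 days, beside 15.4% and 18.4% of all homologs. Either way the share was 36.9% of members, near the 33.8% of all homologs. This test was added after the data had been seen. KNAT2, a homeobox gene of the shoot meristem, had 0.0900 and 0.0620 CPM in the 14-day aquatic and terrestrial libraries, against 10.0 and 10.6 CPM in the 11-day aquatic and 8.98 and 7.65 CPM in the 11-day terrestrial libraries. Its log2 difference, 14 over 11 days, was -6.80, followed by AT5G12930 at -5.21 and HLS1 at -3.18. On the other side, BT3 (1.81), FER (1.21) and CIPK23 (1.02) were higher at 14 days. The summed CPM of 8 annotated markers of shoot apex and dividing cells was 20.7 and 33.6 at 14 days, against 285 to 562 at 11 days, with STM and KNAT1 at 0 in both 14-day libraries, and their part in these values was not tested.

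A ratio within each harvest could be formed for 62 of the 65 members, and 47 of the 62 had the same sign at 14 days (1 library per condition) as at 11 days (2 libraries per condition). The 23 called members among them all did, but they had been selected on these same libraries. A test of the difference in size, the harvest by condition interaction in edgeR, called 3 of the 65 or 4.62% (2 with a higher and 1 with a lower aquatic effect at 14 days), beside 0.662% and 3.95% of all homologs (4.61% either way), so the share was near that of all homologs. GAI had a log2 ratio of -3.60 at 14 days and -1.68 at 11 days. TAR2 had 4.71 at 14 days and 1.68 at 11 days, and AT5G38900 had 3.97 at 14 days and 1.22 at 11 days. In each of the 3 genes the ratio was further from 0 at 14 days, where it rests on 1 library per condition, the aquatic one being that with 36.2% of its counts in 3 transcripts.

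**Figure D4:**
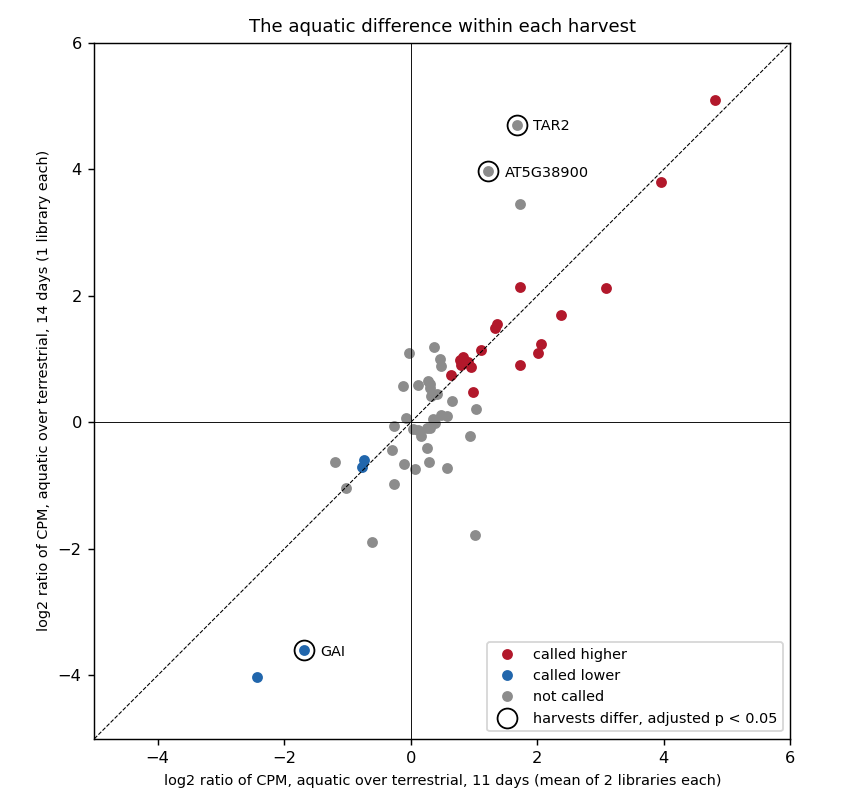
Log2 ratio of CPM, aquatic over terrestrial, of members at 14 days (y axis, 1 library per condition) against 11 days (x axis, mean of 2 libraries per condition), with the dashed line marking equal values. Red and blue points are members called higher and lower, and circles mark GAI, TAR2 and AT5G38900, which passed the interaction test, with log2 ratios of -3.60, 4.71 and 3.97 at 14 days.

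A homolog here is a sum of 1 to 7 assembled transcripts, and these did not always move together. Of the 127 member transcripts tested singly, 23 were higher and 11 lower, beside 6.42% and 4.04% of 58039 transcripts, and with the replicate block 14 were higher and 2 lower, beside 4.07% and 1.65%. Of 29 homologs with several tested transcripts, 21 had the same sign in all and 8 did not, and none had calls in both directions. All 4 transcripts of AGD2 were lower, with log2 fold changes from -0.80 to -0.72. In BT3, 2 isoforms were higher (3.46 and 3.37), whereas the other had 0.59 and was not called. AT5G22540 was split in the same way, with 3.72 and 3.28 for the 2 isoforms of 1 component and 0.59 and 0.45, neither called, for those of another. Some homologs with no call as a sum held a called transcript, among them AUX1 (-1.08, edgeR adjusted p = 0.038, 0.058 with the block), HLS1 (-2.09, 0.027 and 0.063) and CIPK23 (-0.71, 0.044 and 0.081). The called HLS1 transcript was a 37% identity match with at most 47 counts in any library. The most counted HLS1 transcript, a 66% identity match, went the other way (log2 fold change 1.74) and was not called. Isoforms of 1 component had similar counts (median ratio of the lowest to the highest 0.628 in 29 components), so a fragment may enter a sum more than once. With the most counted transcript alone 17 of 64 homologs were higher and 5 lower, beside 9.26% and 6.35% of all homologs. NiaP (log2 fold change 0.58, edgeR adjusted p = 0.068) and AT5G22540 (0.53, 0.075) then lost their calls, and PLA-I beta2 was not tested.

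**Figure D5:**
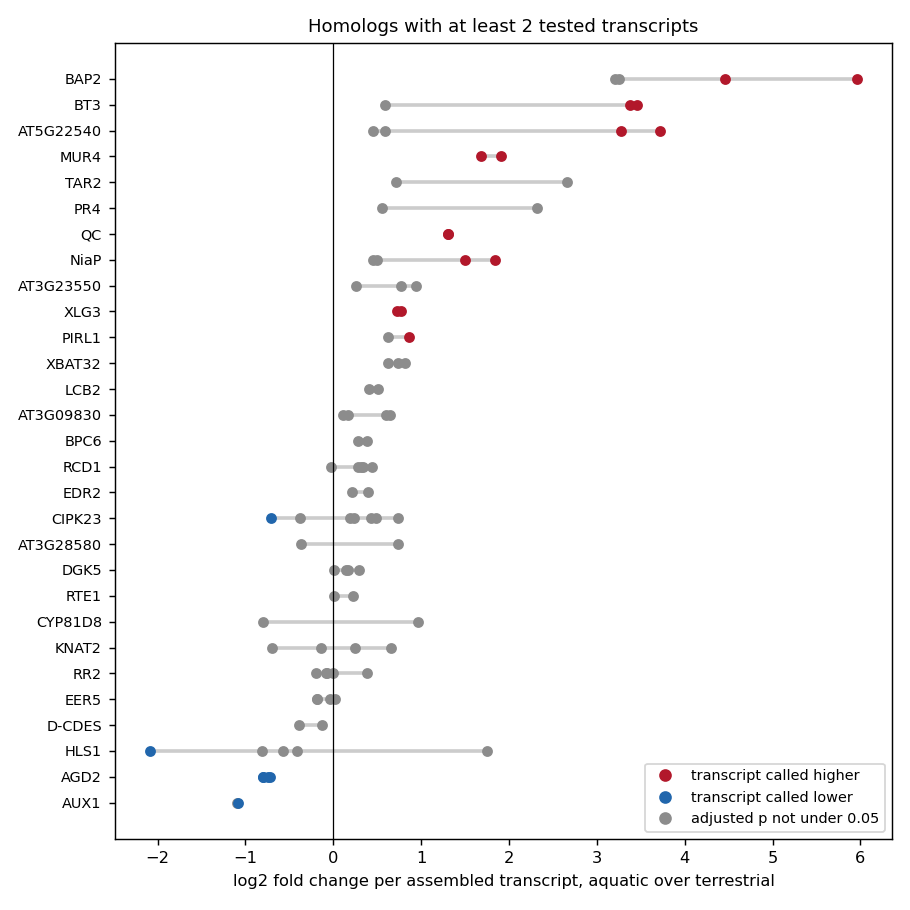
Log2 fold change (aquatic over terrestrial, x axis) of each tested transcript of the 29 homologs with several, with red for higher, blue for lower and grey for not called, and a bar joining transcripts of a homolog. The 4 AGD2 transcripts lie together below 0, whereas CIPK23 and HLS1 span 0.

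The wider ethylene pathway was followed through a list of 74 Arabidopsis genes for synthesis, receptors, signalling and response factors, of which 28 were annotated and 26 tested. In all, 4 (15.4%) were higher, beside 9.6% of all homologs, and 0 lower, namely XBAT32 and 3 genes that are not among the 72. With the replicate block 1 of the 26 (3.85%) was higher, near the 4.01% of all homologs. ERF1A, an ethylene response factor, had 140, 140 and 85.4 CPM in aquatic, against 30.5, 25.7 and 17.2 CPM in terrestrial libraries (log2 fold change 2.33 ± 0.26, edgeR adjusted p = 0.013). The groups were far apart, and ERF1A was the gene that passed with the block (adjusted p = 0.023). MKK9, a kinase upstream of MPK6, had 110, 145 and 148 CPM in aquatic, against 37.0, 31.3 and 15.6 CPM in terrestrial libraries (log2 fold change 2.29 ± 0.37, edgeR adjusted p = 0.021, 0.056 with the block). EIL3, a relative of EIN3, had 54.6, 44.1 and 42.2 CPM in aquatic and 42.0, 29.9 and 28.2 CPM in terrestrial libraries (log2 fold change 0.51 ± 0.11, edgeR adjusted p = 0.038, 0.090 with the block). The 17 tested genes of the list outside the 72 had a median log2 fold change of 0.51. EIN2, at -0.02 ± 0.11, and EIN3, at 0.50 ± 0.19 (edgeR adjusted p = 0.128), were not called. The uncalled genes among the 17 had values of both signs, from ERF1 at -2.48 ± 1.36 to ERF104 at 2.67 ± 0.70. ACO1 (-1.35 ± 0.77) and ACS6 (-0.94 ± 0.44) were also negative.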

How the data were processed

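The authors assembled transcripts de novo with Trinity, and the submitters' processing notes name TopHat and Cufflinks, with versions not given in the sources used here. Per library, the deposited files give an expected count, TPM and FPKM for each of 210686 transcripts, and the deposited annotation table gives an Arabidopsis match with its percent identity for 17559 of 20788 transcripts, plus 6 columns of per-sample values that were not used. All expected counts were whole numbers. They were summed per Arabidopsis identifier and tested with edgeR 4.0.16 (quasi-likelihood, TMM, filterByExpr with a minimum count of 10, harvest and condition terms) in R 4.3.3, with Benjamini-Hochberg adjustment over all homologs. Transcripts were tested likewise. DESeq2 1.42.0 and limma 3.58.1 (quantile-normalized log2 of FPKM plus 1 or 0.1) gave alternatives, beside other scalings, filters, identity limits, terms and left-out libraries.

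Deviations of same-numbered libraries from their group means correlated at 0.645, 0.518 and 0.445 for numbers 1, 2 and 3. As all were above 0.1, by rule the number was used as a block, in an alternative fit. The main calls come from the fit with a harvest term. Aquatic 2 with terrestrial 3 gave 0.559 and aquatic 3 with terrestrial 2 gave 0.452, so the values follow the harvest and do not set numbers 2 and 3 apart. Depth limits precision for genes at a few CPM.

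Genes named are all members that passed (at most 16 per direction by adjusted p), all under the synthesis term, those in the pathway list, the 5 with the highest mean TPM, and the 4 uncalled with the largest change (only where every library of the condition with more had 50 counts or more). ALIS1, members of the perception, transcription and other groups outside this rule, and those named for the harvest were chosen after their values were seen. So were the uncalled pathway genes that are not members. The homologs, roles and lists were chosen with earlier results of these data known.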

Additional observations from a re-analysis of the deposited data

Results flagged for a closer look

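The interaction test in edgeR, for a difference of the aquatic effect between harvests, called 3 of 65 members (4.62%), near the 4.61% of all homologs. On the log2 scale, the aquatic effect at 14 days minus that at 11 days was -1.92 in GAI (adjusted p = 0.018), 3.02 in TAR2 (adjusted p = 0.038) and 2.74 in AT5G38900 (adjusted p = 0.031). Each value rests on 1 library per condition at 14 days, the aquatic one with 36.2% of its counts in 3 transcripts, and the 14-day libraries are assumed to vary like the 11-day ones, since the spread comes from those alone. The same 3 genes were called with DESeq2 size factors and with a minimum count of 50.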

How the results depend on the processing

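The 27 named genes that passed kept their direction under all of the 21 alternatives in which they could be tested, the last of them, DESeq2 without aquatic replicate 2, chosen after seeing the data. Over 45 named genes, 653 of 933 alternative values kept direction and side of the threshold, 223 no longer passed, 23 newly passed and 34 changed sign, all in genes not called. Members called were 20 higher and 5 lower. There were 5 higher (6 lower) with library totals, 31 and 8 with DESeq2, 11 and 0 with the replicate block, and 13 and 3 of 49 with transcripts of at least 50% identity (9.29% and 7.63% of all homologs). With condition as the only term, edgeR called 0 and 0, and 25 and 9 of all 8154 homologs. At an unadjusted p under 0.05 that fit had 27 of 65 members, beside 1368 of all homologs. Leaving out replicates gave 0 to 22 higher and 0 to 4 lower. Of the pathway list, 4 were higher and 0 lower. It gave 1 higher with library totals, 9 higher and 1 lower with DESeq2, 0 higher without the harvest term, 1 higher with the replicate block, 1 lower with the most counted transcript, 7 higher and 3 lower with DESeq2 without aquatic replicate 2, and 0 to 7 higher with replicates left out. Member transcripts called were 23 higher and 11 lower, but 14 and 2 with the replicate block. Signs turned with library totals in RUB1 (-0.0651), ETO1 (-0.29), RTE1 (-0.16), CIPK23 (-0.30) and MAPR3 (-0.22). In limma with a pseudocount of 1 and of 0.1 they turned in CIPK23 (-0.0903 and -0.0913) and MAPR3 (-0.0555 and -0.0561). CIPK23 also turned without the harvest term (-0.00571), with its most counted transcript (-0.29) and in DESeq2 without aquatic replicate 2 (-0.19). With replicates left out, log2 fold changes ranged from -0.19 to 0.0834 in ACS10, -0.10 to 0.16 in ETO1, -0.0402 to 1.33 in ACS7, -0.19 to 0.39 in RTE1, -0.64 to 1.02 in HLS1, -0.18 to 0.16 in CIPK23 and -0.13 to 0.25 in MAPR3. The cause of these shifts was not tested. With 3 libraries per condition in 2 harvests, few degrees of freedom remain, and genes at a few CPM are measured least precisely.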
